A study of Mus musculus with 24 samples.

Results

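The genes described are 8 DNA repair genes known as modifiers of CAG repeat instability: Msh3, Msh6, Mlh3, Pms1, Pms2, Fan1, Lig1 and Exo1. They were chosen by name, as the entries with these mouse gene symbols in both expression tables. All 8 were found, among 17501 genes in the table of mouse embryonic stem cells (mESC) and 16024 in that of neural progenitor cells (NPC), and all 8 passed the filter on low values in both. RNA sequencing had been done on 24 libraries, 12 of each cell type, from 6 genotypes with 2 libraries each. The genotypes were wild type (WT), knockout of Htt (KO) and heterozygous for the knock-in of a CAG repeat of 20, 50, 92 or 111 units into Htt, the huntingtin gene, called Q20, Q50, Q92 and Q111. The mESC were grown with leukemia inhibitory factor on irradiated mouse embryonic fibroblasts of the CF-1 strain, and the NPC were derived from mESC and kept in medium with FGF and EGF. Each repeat length came as a single knock-in line, so repeat length and line cannot be told apart. The sample titles give 92 repeats for the third line and the growth protocol 89. No label says that the 2 libraries of a genotype came from separate cultures, so the p-values measure only the spread between these libraries, which may be technical. Repeat instability was not analysed here.

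Mismatch repair begins when a MutS heterodimer binds a mispaired or looped-out base. Msh6 is the subunit of MutSα, which favours single mispairs and very small loops, and Msh3 that of MutSβ, which favours larger loops such as those formed by slipped CAG repeats. A MutL heterodimer is then recruited. Pms2, Pms1 and Mlh3 are the alternative subunits of MutLα, MutLβ and MutLγ, and Pms2 and Mlh3 carry an endonuclease that nicks the strand. The exonuclease Exo1 removes the nicked strand and the ligase Lig1 seals it after resynthesis. Fan1, a nuclease of interstrand crosslink repair, acts in the opposite sense to MutSβ and MutLγ in models of repeat expansion. Exo1 and Lig1 also act at the replication fork, and their mRNAs are known to be abundant in cycling cells.

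Promoters of Msh6 and Lig1, which moved together in NPC, and of Mlh3, which had values in the opposite direction, are shown for their motif content. RefSeq promoter sequence on GRCm38.p6 was found for 7 of the 8 members. Windows of 250 bases before each start were searched on both strands for E2F words (TTTCCCGC, TTTCGCGC, TTTGCCGC or TTTGGCGC), for a GC box (GGGCGG) and for CCAAT. E2F words stood in 1.86% of the 32851 windows of all genes, the GC box in 32.7% and CCAAT in 33.8%. Among the 7 members with a window, Msh3 alone had an E2F word, as a pair that overlaps on opposite strands. A GC box was found before Msh3, Msh6, Pms2 and 1 of the starts of Lig1, and CCAAT before Msh6, Mlh3, Pms1 and Pms2. Below, capitals mark the GC boxes of Msh6 (120 bases, chr17:87974930-87975049, plus strand). The 120 bases before an inner start of Lig1 (chr7:13279145-13279264, plus strand) held none of the words, and those before Mlh3 (chr12:85270600-85270719, minus strand) held neither an E2F word nor a GC box. A match is a description of the letters and not a binding site.
Msh6: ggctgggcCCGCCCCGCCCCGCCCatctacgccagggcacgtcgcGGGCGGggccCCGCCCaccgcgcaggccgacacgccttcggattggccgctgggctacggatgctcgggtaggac
Lig1: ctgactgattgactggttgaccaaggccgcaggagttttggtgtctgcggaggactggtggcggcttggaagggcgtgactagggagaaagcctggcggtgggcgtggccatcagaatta
Mlh3: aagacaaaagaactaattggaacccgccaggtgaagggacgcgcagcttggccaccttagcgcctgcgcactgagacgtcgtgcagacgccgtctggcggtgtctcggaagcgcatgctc

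The values are a normalised CPM, read counts scaled for library size, and the scaling matched TMM factors (trimmed mean of M-values) recomputed from the reads. A library of mESC held 58546211 to 81502284 reads and one of NPC 48525333 to 118038952, and the member with the fewest had 863 reads in a library. Htt, the targeted gene, was at 124 and 113 in WT mESC and at 139 and 68.5 in the libraries labelled KO, so that 1 of these was not lower than WT. In NPC, Htt was at 100 and 94.9 in KO against 137 to 184 in the other groups. Summed pluripotency markers (7 of 8 in the table) were 1992 to 3772 in mESC and, with 5 of 8, at most 108 in NPC. Summed neural progenitor markers (8 of 9) were 3943 to 9365 in NPC and 139 to 548 in mESC. Sums of fibroblast markers, the cell type of the feeder layer, were 12.2 to 17.9 in WT and KO mESC and 46.0 to 69.4 in the knock-in lines. In these bulk samples, fewer cells of a type and less RNA per cell cannot be told apart.

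In mESC, the MutS subunit Msh6 was the most abundant member per kilobase of transcript, and its level differed between lines in a pattern shared with its stretch of chromosome 17. Msh6 (ENSMUSG00000005370, 10 exons, chr17:87975062-87990892, plus strand) was at 929 and 1031 normalised CPM in WT, 1512 and 1735 in the libraries labelled KO, and 1226 and 1256 in Q20. It was at 1275 and 1465 in Q50, 819 and 881 in Q92, and 1294 and 1429 in Q111. The Q92 libraries were the lowest of the 12 and those labelled KO the highest, with no overlap between neighbours in the order except Q111 and Q50. Per kilobase, the median of Msh6 over the libraries was 298, against 24.0 for its counterpart Msh3. Msh3 (ENSMUSG00000014850, 24 exons, chr13:92211872-92355003, minus strand) ran from 79.5 to 111 normalised CPM in mESC, and every genotype overlapped its neighbours in order. The ratio of Msh6 to Msh3 per kilobase was 8.21 and 7.89 in the Q92 libraries and 10.8 to 15.8 in the other genotypes.

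Of the MutL subunits, Mlh3 (ENSMUSG00000021245, 12 exons, chr12:85234520-85270599, minus strand) was lower in the knock-in lines than in WT and KO, and Q20 had the lowest mean of all 3 subunits in mESC. Mlh3 was at 118 and 108 in WT, 117 and 110 in KO, 72.4 and 68.1 in Q20, 85.0 and 85.7 in Q50, 99.4 and 91.95 in Q92, and 76.1 and 90.9 in Q111. All 8 knock-in libraries were below the 4 WT and KO libraries. The share of all genes with such a separation of groups is not given here, for this or any other member, in either cell type. Pms1 (ENSMUSG00000026098, 13 exons, chr1:53189187-53297018, minus strand) was at 91.6 and 67.6 in WT, 110 and 97.4 in KO, 73.5 and 47.3 in Q20, 91 and 75.6 in Q50, 66.8 and 54.5 in Q92, and 76.2 and 61.4 in Q111. The library numbered 1 was the higher for Pms1 in all 6 genotypes. Pms2 (ENSMUSG00000079109, 15 exons, chr5:143909964-143933968, plus strand) ran from 44.0 to 88.9, with the library numbered 2 higher in all 6 genotypes. Reads of Pms2 are uncertain in part, since 5794 bases of its span overlap Gm42421 and 934 overlap Rsph10b on the same strand. On the other strand, 11392 bases overlap Gm17135. These are overlaps of whole gene spans, introns included, and not counts of uncertain reads.

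The nucleases and the ligase spanned narrower ranges than Msh6 and Pms1 in mESC. Exo1 (ENSMUSG00000039748, 15 exons, chr1:175880581-175913489, plus strand) ran from 126 to 209 in mESC, lowest in Q92 and highest in KO. Fan1 (ENSMUSG00000033458, 14 exons, chr7:64346758-64374095, minus strand) ran from 14.6 to 23.2 and was the lowest member per kilobase, at a median of 5.08. Lig1 (ENSMUSG00000056394, 29 exons, chr7:13277283-13311433, plus strand) ran from 201.3 to 275.3 and was second to Msh6 per kilobase, at 77.1. For Lig1, no genotype was separated from the next in the order of means.

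**Figure D1:**
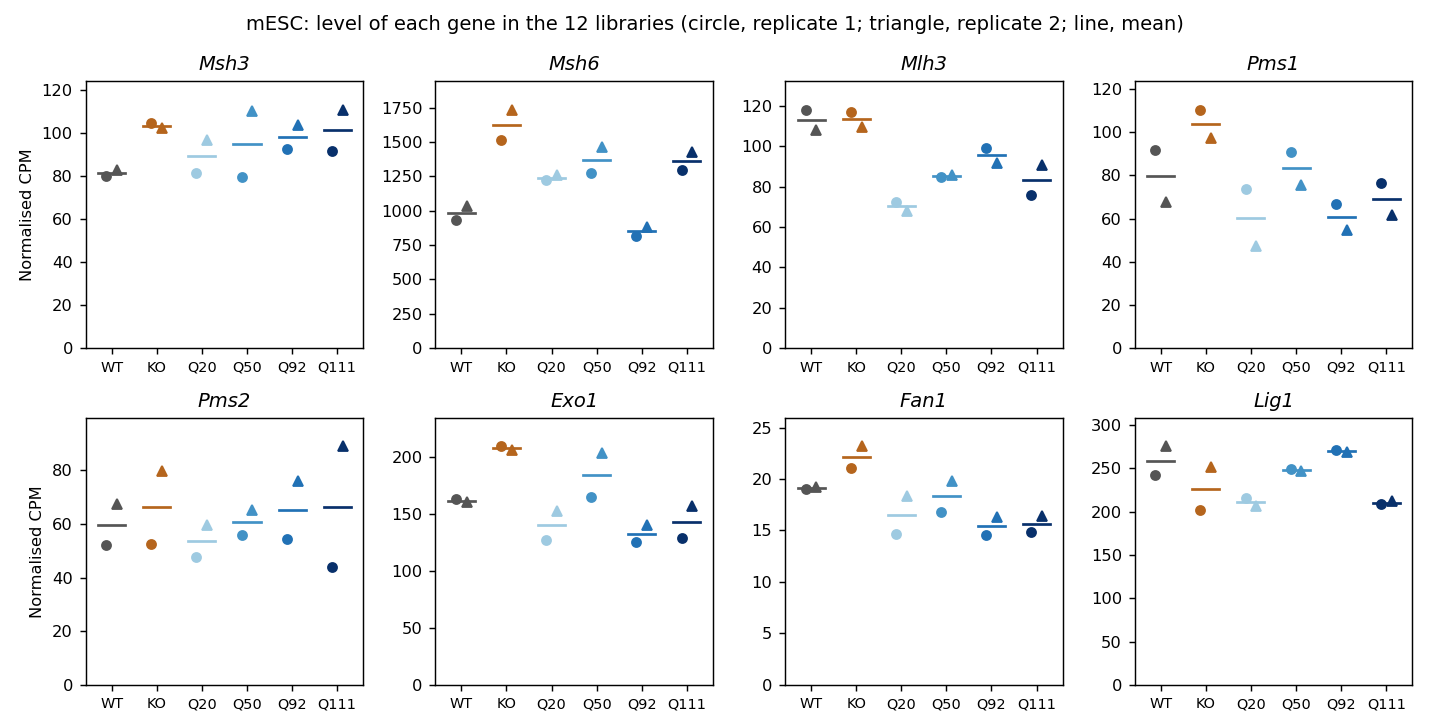
Level of each member in the 12 mESC libraries (y axes, normalised CPM; genotypes along the x axes; circles, libraries numbered 1; triangles, numbered 2; lines, mean of the 2 libraries). Msh6 is lowest in Q92, at 819 and 881, and Mlh3 is lower in all 8 knock-in libraries than in the 4 WT and KO libraries. The share of all genes separated so is not given here.

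Genotypes were compared with limma on log2(value + 1), with the threshold for a call at 0.05 for the p adjusted by Benjamini-Hochberg over all 13916 mESC genes tested. Without a term for the library number, limma called 0 of the 8 members in every mESC comparison. On the recovered reads, edgeR also called 0. For edgeR the share of all genes called is not given here. By limma it was 0.0144% for KO against WT, 0.323% for Q20 against WT, and 0.00719% both for Q50 and for Q92 against Q20. It was 0% for Q111 against Q20, 0.201% for the F test across the 6 genotypes and 0% for the slope on repeat length. At an unadjusted p under 0.05 the members numbered 1 for KO against WT, 1 for Q20 against WT, 2 for Q92 against Q20, 3 for the F test and 0 for the other mESC comparisons. Of all genes, 3.97%, 12.3%, 5.37% and 9.91% lay under that value in these 4 comparisons.

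In mESC, libraries with the same number deviated together in all 15 pairs of genotypes, so the fit with the replicate block is given beside. With it, Msh6 was called higher in the libraries labelled KO than in WT, by 0.73 (SE 0.0827, limma adjusted p 0.0442), where 0.0647% of all genes were called higher. Msh6 was also higher in Q20 than in WT, by 0.34 (adjusted p 0.0411), where 5.91% of genes were called higher. Mlh3 was lower in Q20 than in WT, by -0.68 (SE 0.125, adjusted p 0.0202), where 4.69% of genes were called lower. In Q92, Msh6 was lower than in Q20 by -0.55 (SE 0.0827, adjusted p 0.0466), where 0.331% of genes were called lower. The F test with the replicate block called 3 of 8 members, Msh6 (adjusted p 0.00813), Pms1 (0.0394) and Mlh3 (0.0492), against 8.67% of all genes. With edgeR and the replicate block the pairwise calls were of the same number and the F test called 2 members. Of all genes, that fit called 0.137% for KO against WT, 9.21% for Q20 against WT and 0.259% for Q92 against Q20. For the F test it called 7.85%. As ratios of mean levels, Msh6 was 1.66 times WT in the libraries labelled KO, and 0.685 times Q20 in Q92.

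The differences in Msh6 in mESC were shared by the genes around it. There were 25 other genes with a mean of at least 5 within 5 Mb of its start. In KO against WT their median log2 change was 0.62, beside 0.73 for Msh6 and 0.00553 for the 513 genes of chromosome 17. In Q20 against WT it was 0.44, beside 0.34 for Msh6 and -0.12 for the chromosome. In Q92 against Q20 it was -0.58, beside -0.55 for Msh6 and 0.02 for the chromosome. By library, the median of these 25 genes, centred on each gene's own mean, was -0.23 and -0.35 in WT and -0.30 and -0.41 in Q92, and 0.04 to 0.38 in all others. Bins of 2 Mb at -10 to 2 Mb from Msh6 had medians of 0.47 to 0.72 for KO against WT and -0.61 to -0.21 for Q92 against Q20. When the values were centred on the genes within 5 Mb, a setting chosen after seeing the data, Msh6 changed by 0.12 in KO against WT, -0.10 in Q20 against WT and -0.04 in Q92 against Q20. None of these 3 passed the threshold with or without the replicate block (adjusted p with it 0.749, 0.595 and 0.917).

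**Figure D2:**
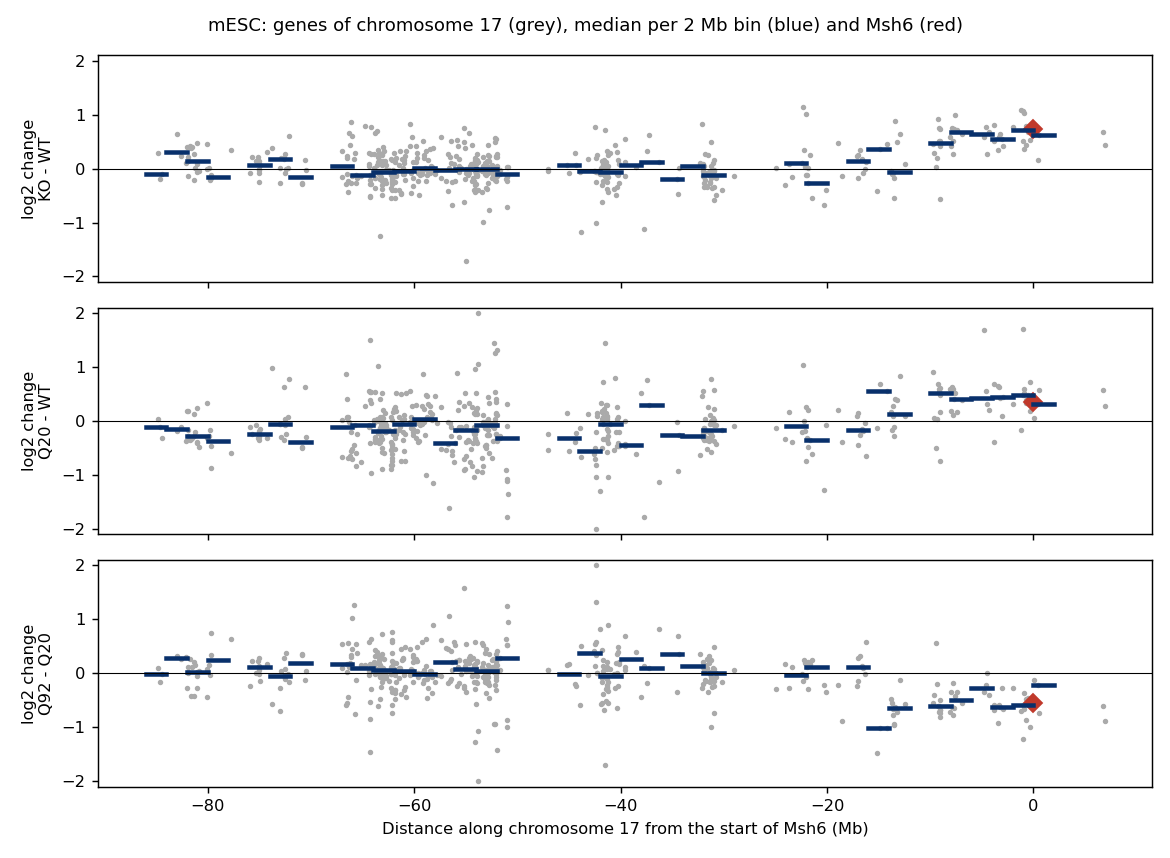
Log2 change of the genes of chromosome 17 in mESC (grey points, y axis, values beyond 2 or -2 drawn at the edge) against distance from the start of Msh6 in Mb (x axis), for KO against WT, Q20 against WT and Q92 against Q20; blue bars are medians of 2 Mb bins with at least 3 genes and the red diamond is Msh6. Msh6, at 0.73, 0.34 and -0.55, lies at the level of the bins around it, while the median of the whole chromosome is near 0.

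Pms1 and Exo1 share chromosome 1, whose median moved as a whole. In KO against WT the 591 genes of the chromosome in mESC had a median change of 0.32, beside 0.39 for Pms1 and 0.36 for Exo1. In Q50 against Q20 it was 0.40, beside 0.48 and 0.39. After centring on the chromosome's median, a setting chosen after seeing the data, Exo1 changed by 0.0062 in KO against WT. Chromosomes 11, 1, 8 and 14 had the widest ranges of this median over the mESC libraries, 0.626, 0.600, 0.507 and 0.452, against at most 0.281 for the others. Mlh3, on chromosome 12, did not follow this pattern in Q20 against WT: its 66 neighbours within 5 Mb had a median of -0.08, and centred on them Mlh3 was still called lower with the replicate block, by -0.65 (adjusted p 0.0221). Fibroblast marker sums were higher in Q20 (52.5 and 69.4) than in WT (15.2 and 17.9), and their part in the Mlh3 difference was not tested.

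In NPC, Lig1 and Exo1 were lowest in Q20 among the knock-in lines and highest in Q111, and both WT libraries lay far apart from each other. Exo1 was at 19.8 and 128 normalised CPM in WT, 29.6 and 137 in KO, 45.4 and 45.7 in Q20, 59.9 and 70.8 in Q50, 98.0 and 89.2 in Q92, and 141 and 149 in Q111. No knock-in line overlapped another, while the WT and KO libraries spanned most of the range. Lig1 was at 52.1 and 194 in WT, 76.1 and 206 in KO, 90.5 and 88.5 in Q20, 104 and 122 in Q50, 179 and 166 in Q92, and 241 and 243 in Q111. The mean of Exo1 in Q111 was 3.18 times that in Q20 and that of Lig1 2.70 times. In WT, the library numbered 2 had 6.45 times the Exo1 and 3.73 times the Lig1 of the library numbered 1, and in KO 4.62 and 2.71 times.

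The MutS subunits differed from each other in NPC. Msh6 was at 84.9 and 238 in WT, 142 and 282 in KO, 192 and 204 in Q20, 176 and 198 in Q50, 281 and 272 in Q92, and 311 and 324 in Q111. Q20 and Q50 overlapped, and both were below Q92, which was below Q111. Msh3 was at 45.9 and 56.3 in WT, 47.7 and 54.7 in KO, 62.1 and 63.5 in Q20, 43.5 and 44.4 in Q50, 70.1 and 62.1 in Q92, and 60.5 and 64.1 in Q111. Both Q50 libraries were the lowest of the 12 for Msh3. The ratio of Msh6 to Msh3 per kilobase ran from 1.72 in a WT library to 4.77 in a KO library. The tables were scaled separately, so this range, below the 7.89 to 15.8 of mESC, is a ratio within each table and not a level set across them.

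Mlh3 was lower in the lines with the 2 longest repeats in NPC. It was at 50.6 and 24.3 in WT, 35.7 and 23.1 in KO, 31.9 and 32.1 in Q20, 37.1 and 34.8 in Q50, 20.0 and 16.7 in Q92, and 23.6 and 21.4 in Q111. The 4 libraries of Q92 and Q111 were below the 4 of Q20 and Q50. Of the summed MutL subunits per kilobase, Mlh3 made up 26.6% to 29.8% in Q20 and Q50 and 14.3% to 18.0% in Q92 and Q111. Pms1 ran from 27.0 to 43.5 normalised CPM, Pms2 from 26.4 to 55.5 and Fan1 from 13.8 to 23.9. Fan1 in Q92 and Q111, at 13.8 to 17.5, was below every library of Q20, Q50, WT and KO. For neither Mlh3 nor Fan1 is the share of all genes separated so given here. The 27 genes within 5 Mb of Fan1 had a median log2 change of -0.626 in Q111 against Q20, beside -0.403 for Fan1. In Q92 against Q20 their median was 0.353, beside -0.396 for Fan1. Per kilobase, Msh6 (median 52.1) and Lig1 (45.4) led in NPC as in mESC, and Mlh3 (5.14) was the lowest.

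**Figure D3:**
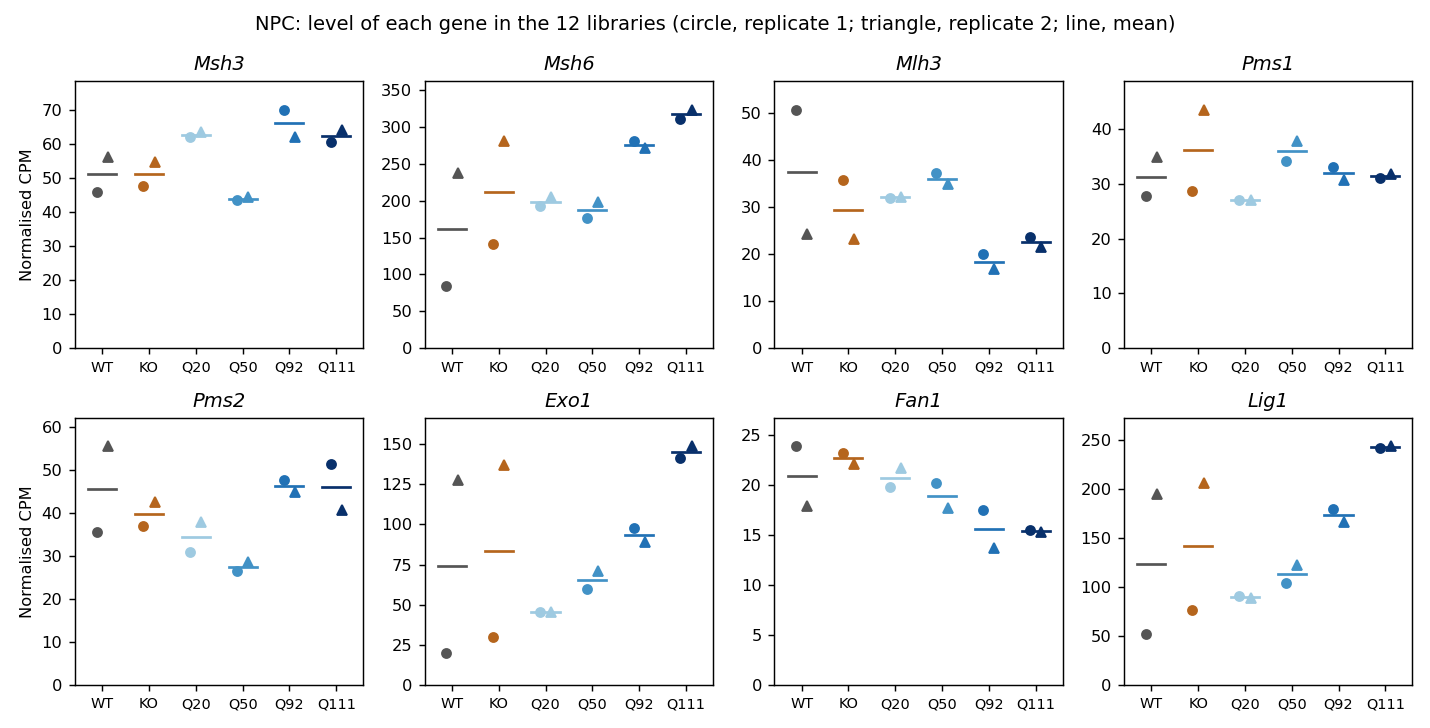
Level of each member in the 12 NPC libraries (y axes, normalised CPM; genotypes along the x axes; circles, libraries numbered 1; triangles, numbered 2; lines, mean of the 2 libraries). Exo1, Lig1 and Msh6 are highest in Q111, at 141 and 149, 241 and 243, and 311 and 324, while both WT libraries differ from each other by 2.81 to 6.45 times for these genes.

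Between pairs of groups, the model with all 6 NPC genotypes called 1 member in 1 comparison. Msh3 was lower in Q50 than in Q20 by -0.50 (SE 0.146, limma adjusted p 0.0447), where 10.7% of the 13206 genes tested were called lower. Without any 1 of the 4 libraries of that pair the adjusted p was 0.150 to 0.178, and with the replicate block it was 0.0512. The model called 0 members for KO against WT, where 1.42% of genes were called, and 0 for Q20 against WT (14.5%). It also called 0 for Q92 against Q20 (25.8%), for Q111 against Q20 (28.3%) and for the F test across genotypes (38.0%). At an unadjusted p under 0.05 these counts were 0, 0, 1, 1 and 1, beside 13.3%, 26.2%, 39.9%, 42.5% and 50.7% of all genes. At the adjusted threshold edgeR called 0 members in each, and its share of all genes called is not given here. The spread of the WT and KO libraries enters this model: Exo1 in Q111 against Q20 changed by 1.65 with an SE of 0.846 (limma adjusted p 0.172). WT and KO libraries of the same number deviated together in NPC (correlation of their differences 0.467). A pairing of these genotypes alone was not fitted, so the count for KO against WT does not take it up.

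With the knock-in libraries alone in the model, a setting chosen after seeing the data, 4 of 8 members were called in each comparison with Q20. Those of Q50 were Msh3, Pms1, Lig1 and Exo1, against 38.1% of all genes called. For Q92 (49.6%) and for Q111 (51.2%) they were Msh6, Mlh3, Lig1 and Exo1. The members' share was thus near the background. In Q50 against Q20 the 625 genes of chromosome 1 in NPC had a median change of 0.585. Beside it, Pms1 changed by 0.40 and Exo1 by 0.51. In Q111, Exo1 was higher by 1.65 (SE 0.102, limma adjusted p 0.000106), Lig1 by 1.43 (SE 0.091, adjusted p 0.000118) and Msh6 by 0.67 (SE 0.078, adjusted p 0.000853), and Mlh3 was lower by -0.49 (SE 0.123, adjusted p 0.0173). These comparisons share the Q20 libraries.

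The slope on repeat length was fitted over the 8 knock-in libraries and is given as the log2 change over the 91 repeats from 20 to 111. In NPC 3 of 8 members were called higher, where 12.0% of all genes were called higher. Exo1 rose by 1.54 (SE 0.153, limma adjusted p 0.000939), Lig1 by 1.39 (SE 0.132, adjusted p 0.000838) and Msh6 by 0.75 (SE 0.151, adjusted p 0.0115). None was called lower, where 10.1% of all genes were: Mlh3 had a slope of -0.76 (adjusted p 0.0635) and Fan1 of -0.44 (adjusted p 0.125). Mlh3 was called in 1 alternative, centred on its chromosome's median (-0.92, adjusted p 0.0478). Pms2 was at 0.60 (adjusted p 0.104) and was called in 1, without the Q20 line (1.15, adjusted p 0.0498). Msh3 was at 0.19 (adjusted p 0.589) and Pms1 at 0.13 (adjusted p 0.648). The median over the members was 0.39, beside 0.04 over all genes tested. With 1 mean value for each of the 4 lines, limma called 0 members and 0 of all genes, and Msh6 was not called with quantile normalization (0.45, adjusted p 0.0881) or without the Q111 line (0.64, adjusted p 0.0934). Centred on the genes within 5 Mb, the slopes were 1.63 for Exo1, 1.43 for Lig1 and 0.65 for Msh6, and all 3 were called.

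**Figure D4:**
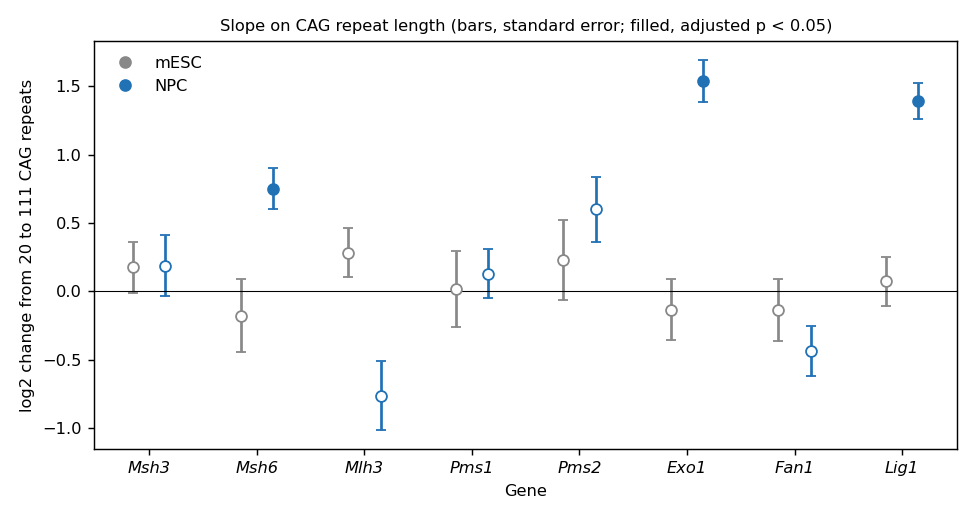
Slope on repeat length of each member, as log2 change over 91 repeats with its SE, in mESC and NPC (8 knock-in libraries each); filled points have an adjusted p under 0.05. Exo1, Lig1 and Msh6 have NPC slopes of 1.54, 1.39 and 0.75, and all mESC slopes lie between -0.18 and 0.28.

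The slopes of Lig1 and Exo1 differed between the cell types. In a model of the 16 knock-in libraries, the NPC slope exceeded that of mESC by 1.68 for Exo1 (SE 0.272, limma adjusted p 0.00350) and by 1.32 for Lig1 (SE 0.218, adjusted p 0.00372). These were 2 of 8 members called higher, where 2.70% of the 12321 genes tested in both tables were called higher. For Msh6 the difference was 0.93 (adjusted p 0.110) and for Mlh3 -1.05 (adjusted p 0.0625), which edgeR called (-1.14, adjusted p 0.0479). With 1 mean value per line no member was called, and 0 of all 12321 genes.

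Replication and proliferation genes moved with Lig1, Exo1 and Msh6 in NPC. Their list held 22 genes, among them Cdk1, the mitotic kinase, and Mcm4, a subunit of the replicative helicase. Of the 22, the NPC slope on repeat length was called higher for 20 and lower for 0, with a median of 1.49. Of all genes, 12.0% were called higher and 10.1% lower. Cdk1 rose by 1.62, Mcm4 by 1.69 and Ccna2, cyclin A2, by 1.44. The sum of the list was 2100 and 6979 in WT, 3087 and 7855 in KO, 3052 and 3184 in Q20, 4027 and 4541 in Q50, 6236 and 5567 in Q92, and 9046 and 9368 in Q111. The lowest sum was that of WT 1 and the highest those of Q111, which also had the lowest and highest Lig1 and Exo1. Over the 12 NPC libraries, the log2 value of Lig1 had a Pearson correlation of 0.992 with the log2 sum. For Exo1 it was 0.979, for Msh6 0.903 and for Mlh3 -0.810. The other members were at 0.61 for Pms2, 0.59 for Pms1, 0.46 for Msh3 and -0.68 for Fan1. The libraries share genotypes and scaling. In mESC, where the sum ran from 8222 to 10764, the same correlation was -0.02 for Lig1, 0.19 for Exo1 and -0.02 for Msh6. It was 0.84 for Pms1, 0.51 for Mlh3, -0.61 for Pms2, -0.32 for Msh3 and 0.14 for Fan1. Markers of other cell types also differed between the NPC lines, and Q20, from which the slope starts, stood apart. The summed pluripotency markers (5 of 8 in the table) were 108 and 106 in Q20 and 4.72 to 26.5 in the other knock-in libraries. Most of the sum in Q20 was Pou5f1, a defining gene of stem cells, at 90.05 and 87.4 in Q20 and at most 0.244 in the other knock-in libraries. Nanog was at 13.0 and 13.7 in Q20 and at most 0.776 in the others. Klf4 was lower in Q20 (3.19 and 3.83) than in Q92 and Q111 (10.2 to 18.5), and lower still in Q50 (2.185 and 2.62). Esrrb was at 0.721 and 0.751 in Q20 and at 0.723 to 7.74 in the other knock-in libraries. The summed astrocyte markers were 543 and 500 in Q20, 207 and 121 in Q50, 8.77 and 13.5 in Q92, and 146 and 139 in Q111. In Q111 a single marker, Aldh1l1 at 138 and 131, made up most of that sum, while Aqp4 was at 2.80 and 2.92, against 253 and 247 in Q20. The summed fibroblast markers were 244 to 300 in Q20, 866 to 888 in Q50 and at most 7.30 in Q92 and Q111. Without the Q20 line the slopes were 1.61 for Exo1, 1.58 for Lig1 and 1.15 for Msh6, and all 3 were called (adjusted p 0.0160, 0.0111 and 0.0122). Whether proliferation or cell type makeup has a part in the members' slopes was not tested.

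**Figure D5:**
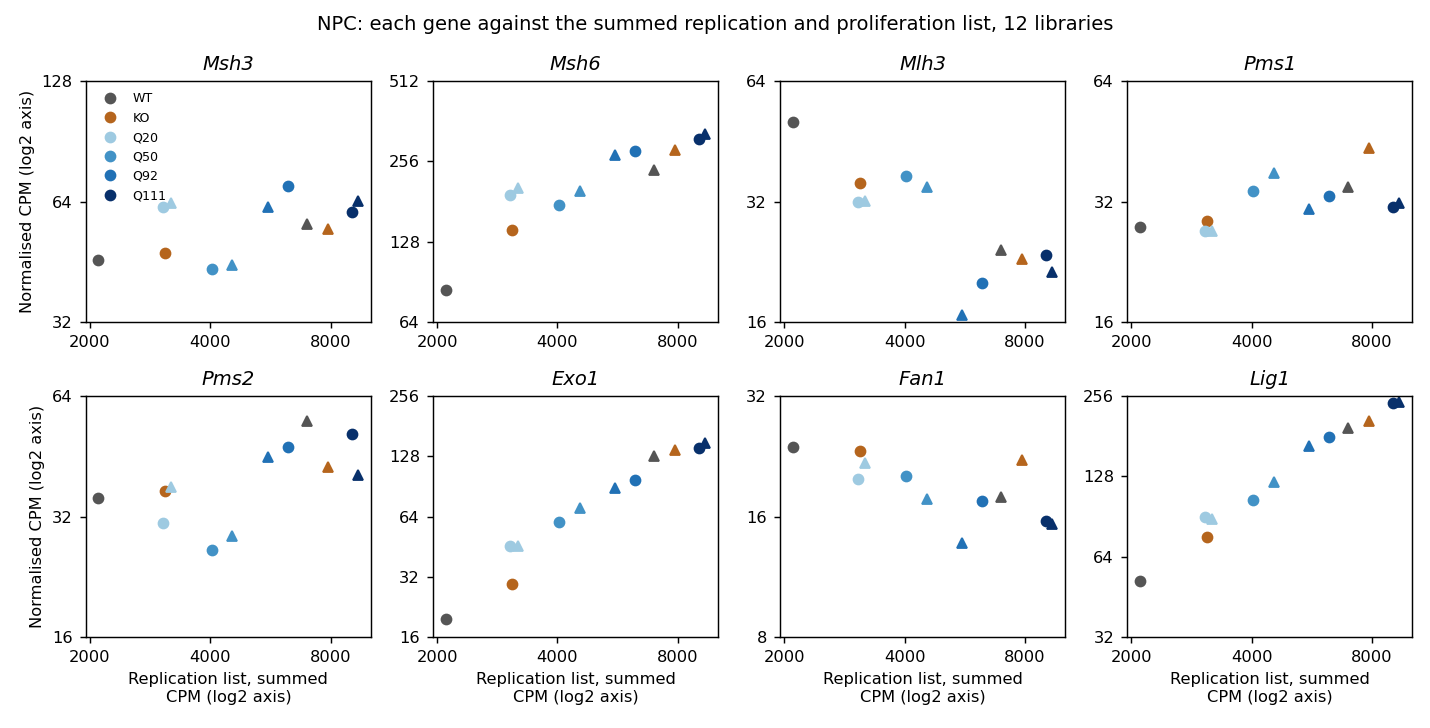
Level of each of the 8 members in the 12 NPC libraries (y axes, normalised CPM, log2 axis) against the summed level of the 22 replication and proliferation genes (x axes, normalised CPM, log2 axis); circles are libraries numbered 1, triangles those numbered 2, and colours the genotypes. Lig1 and Exo1 are lowest in WT 1, where the sum is 2100, and highest in the Q111 libraries, where it is 9046 and 9368; Mlh3 is highest in WT 1.

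Other genes of the pathway were taken from 3 further lists. Of 19 mismatch repair partners, the NPC slope on repeat length was called higher for 10 and lower for 1, with a median of 0.85. Pcna, the sliding clamp of replication and repair, rose by 1.79 (SE 0.141), Rpa2, a subunit of the protein that coats single-stranded DNA, by 1.40 and Rfc1, of the clamp loader, by 0.87. Among 13 genes of base excision and flap processing, 2 were called higher and 1 lower, with a median of 0.57. Both shares are near the 12.0% and 10.1% of all genes called higher and lower. Apex1, the abasic site endonuclease, rose by 0.94, Xrcc1, a repair scaffold, by 0.80, and Neil2, a DNA glycosylase, fell by 1.29. Of the 15 FAN1 partner and crosslink repair genes tested, 6 were called higher and 0 lower, with a median of 0.62. Fancb was at 1.76, Fancm at 0.83 and Slx4 at 0.77. In mESC, limma called 0 genes of all 4 lists for the slope. The slope was called higher in NPC than in mESC for 7 of the 19 partners, 0 of 13, 2 of 15 and, for replication and proliferation, 13 of 22 genes. Of the 12321 genes tested in both cell types, 2.70% were called higher.

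For Pms2 and Pms1, a gene that starts close by on the other strand is set beside them. Aimp2, a scaffold of the tRNA synthetase complex, starts 117 bases from Pms2 and rose with repeat length in NPC by 0.89 (adjusted p 0.0163), beside 0.60 for Pms2, which was not called. Ormdl1, a regulator of sphingolipid synthesis that starts 77 bases from Pms1, was higher in KO than in WT NPC by 1.39 (adjusted p 0.0247), beside 0.18 for Pms1, and in Q50 than in Q20 by 0.99 (adjusted p 0.0135), beside 0.40. The 33 genes within 5 Mb of Pms1 had a median change in NPC of 0.126 in KO against WT and of 0.813 in Q50 against Q20. The difference between a member and the gene that starts close by was not tested. Use of strand in the counting was not given in the sources used here, so reads where a member overlaps another gene are uncertain.

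Among all tested genes, those most like the members were ranked by Pearson correlation of log2(value + 1) over 12 libraries. In NPC, Lig1 was most like Cdc45 (0.997), a replication fork helicase factor, Wdr62 (0.991) and Pola2 (0.990), a subunit of DNA polymerase alpha. For Exo1 the 3 were Lig1 (0.989), Wdr62 (0.989) and Cdc45 (0.988), and for Msh6 Lyar (0.994), Orc1 (0.992), of the origin recognition complex, and Larp7 (0.987). Mlh3 was most like Atrn (0.971). In mESC all 3 genes most like Pms1 (Tpp2, Ndufb3 and Dtl) and all 3 most like Exo1 (Gpatch2, Map4k4 and Mcm3) lie on chromosome 1, as both members do. The 3 most like Fan1 (Ddx59, Nme7 and Rabif) also lie on chromosome 1, although Fan1 is on chromosome 7. Of those most like Msh6 in mESC, Lrpprc (0.966) and Ppp1r21 (0.930) lie on chromosome 17 and Rdh12 (0.942) on chromosome 12. Among the members, Lig1 and Exo1 had a correlation of 0.989 in NPC and -0.04 in mESC, where the closest pair was Fan1 and Exo1 at 0.923.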

How the data were processed

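Expression had been measured by paired-end RNA sequencing of 24 libraries. Per the submitters' processing notes, CASAVA 1.8 and STAR and the build GRCm38.p6 were used; the counting tool, its use of strand and any filter are not given in the sources used here. The authors deposited a normalised CPM signal per gene, with a separate table for each cell type. Column totals ran from 900342 to 1080734, so the values are not plain CPM; 100% were whole multiples of 1 read (tolerance 0.1), and the reads so recovered served edgeR 4.0.16 as an alternative. Intervals from counting do not cover the spread between libraries.

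Genes with a value of at least 1 in at least 2 libraries were tested with limma 3.58.1 in R 4.3.3 on log2(value + 1), with a variance trend and 6 group means, two-sided. Fold changes on this scale understate changes of low genes. The slope used the 8 knock-in libraries, and its difference between cell types 16. Figures were drawn with matplotlib 3.10.9 in Python 3.11.15. The analysis was tested on simulated data. Positions came from GENCODE annotation on GRCm38.

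The labels number the libraries 1 and 2 in each genotype. The correlation between genotypes of the difference between both numbers was 0.250 to 0.547 in mESC, over 0.1 in 15 of 15 pairs, so the numbers were treated as pairs there, from the data. In NPC it was -0.0495 to 0.467, over 0.1 in 3 of 15. The highest, 0.467, was that of WT and KO, and a pairing of these genotypes alone was not fitted.

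All 8 members are named. Of the 4 gene lists, at most 3 genes each with the smallest p in the NPC slope are named, beside genes starting within 1000 bases on the other strand and the 3 genes most alike. Members and lists were chosen with earlier results of these data known. Alternatives were other pseudocounts, filters, scalings, tools and models, and leaving out each library. Some genes that these rules name are not reported here.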

Additional observations from a re-analysis of the deposited data

Results flagged for a closer look

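The slope on repeat length differed between the cell types for Lig1 and Exo1, by a test of the difference itself. It was higher in NPC than in mESC by 1.32 for Lig1 (limma adjusted p 0.00372) and by 1.68 for Exo1 (adjusted p 0.00350). Over the alternatives tried the difference ran from 1.13 to 1.41 for Lig1 and from 1.55 to 1.87 for Exo1. Both calls were lost with 1 mean value per line (limma adjusted p 0.303 and 0.278), a fit that called 0 of the 12321 genes tested. The summed replication and proliferation list, at 3052 to 9368 in the knock-in NPC and 8222 to 10091 in the knock-in mESC, moved with both genes in NPC; its part in the difference was not tested.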

How the results depend on the processing

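With 2 libraries per genotype and 4 lines, no setting separates repeat length from line. In mESC, the counts of members called with the replicate block were 1 for KO against WT, 2 for Q20 against WT, 1 for Q92 against Q20 and 3 for the F test. Of all genes, 0.115%, 10.6%, 0.460% and 8.67% were called in these fits. With edgeR and the block the counts of members were 1, 2, 1 and 2, beside 0.137%, 9.21%, 0.259% and 7.85% of all genes. Centring was chosen after seeing the data. With it and the block, Q20 against WT gave 1 within 5 Mb (6.16% of all genes) and 2 by chromosome (6.80%). The F test gave 1 by chromosome (5.38%). In NPC, Q50 against Q20 gave 1 member in the model with all 6 genotypes, where 2478 of 13206 genes were called. The count of members fell to 0 with a mean of at least 5 (1375 of 10566 genes called). It was also 0 with the replicate block (2504 of 13206 genes called). Pairs fitted alone gave 2, 4 and 5 for Q50, Q92 and Q111 against Q20 (29.7%, 46.6% and 50.8% of all genes), and the knock-in model 4, 4 and 4. The NPC F test gave 1 with quantile normalization or either centring (31.9% to 37.7% of all genes), 3 without WT 1 (52.9%) and 5 without WT 2 (59.1%). Q20 against WT gave 1 without WT 2 (16.9%) and with either centring (12.2% and 12.7%). The NPC slope gave 0 with 1 mean per line or with the libraries of 1 number alone, where 0 of all 13206 genes were called. The slope difference with 1 mean per line also gave 0, where 0 of all 12321 genes were called.

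Directions reversed in few settings, and for no called value outside the mESC replicate block. The mESC slope of Lig1 ran from -0.019 to 0.18 (without Q20 replicate 2 and without Q111 replicate 1) and was -0.25 without the Q20 line and 0.44 without the Q111 line, and Exo1 in Q50 against Q20 was -0.0060 centred on its chromosome, with or without the block. Msh6 centred within 5 Mb, with or without the replicate block, had -0.10 in Q20 against WT and 0.0041 in the slope in mESC. In NPC, the slope of Pms1 was -0.29 without the Q20 line and that of Msh3 -0.085 centred on its chromosome. The replicate block changed no other count of members called. The cause was not tested.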
